A study of Homo sapiens with 2 samples.

Results

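Clone-named loci are transcribed regions of the human genome whose name in the annotation is that of the sequenced genomic clone they lie on, such as AC012306.2, because no gene symbol had been given to them. In the deposited table, 6260 of 47892 transcripts carried an Ensembl transcript identifier, lay on chromosomes 1 to 22 and had such a name, and they made up 4741 of 16978 genes. The members were chosen by name and position alone, not by their expression. Of these genes, 4073 were listed with 1 transcript and 668 with more. The cells were SKOV3, a human ovarian cancer line, wild type per the labels, with 1 library from untreated parental cells and 1 from the olaparib-resistant derivative SKOV3_OR, kept in this PARP inhibitor below its IC50 for at least 3 months. Olaparib blocks the DNA repair enzymes PARP1 and PARP2. Total RNA depleted of ribosomal RNA was sequenced, so RNAs without a poly(A) tail could be retained. With 1 library per line there is no replicate check, no test was made, and every difference below describes these libraries; resistance, passage and the drug itself cannot be told apart.

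Most loci of this kind are annotated as long non-coding RNAs, transcripts without a known protein product. They are sorted by their position: antisense RNAs lie opposite another gene, divergent RNAs start head to head with a neighbour and run away from it, sense-intronic RNAs lie within an intron, and intergenic RNAs stand apart. Some long non-coding RNAs act on the gene next to them, some act elsewhere, some host a small RNA, and for most no role is known. Where a locus overlaps another gene, reads can be shared with it, and no source used here says whether strand was used in counting.

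The name was checked against GENCODE release 29, which lists 4248 of the 4741 gene identifiers. By its types, 4027 were long non-coding genes, among them 1903 antisense, 1328 intergenic and 463 sense-intronic genes. The other types included 129 pseudogenes and 91 protein-coding genes. A gene symbol stood in release 29 for 95 members, 38 of them protein-coding, so these were not unnamed there: AC004086.1 is the identifier of RPL6, AC074143.1 that of NOL3 and AC016586.1 that of SIRT6. For these genes the listed transcripts were mainly retained-intron or other non-coding forms, and their values do not stand for the mRNA. A later name table gave a symbol to 922 members, for example TUBA1B-AS1 for AC011603.2 and EMSLR for AC006329.1.

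The sequences of 4 loci are shown, because 3 of them carry small RNA genes that stood among the larger values and the other had the highest log2 ratio. All are read 5′ to 3′ from GENCODE release 29 transcripts on GRCh38. In the first 3, capitals mark the bases that lie inside an annotated small RNA gene on the same strand.
AL360012.1: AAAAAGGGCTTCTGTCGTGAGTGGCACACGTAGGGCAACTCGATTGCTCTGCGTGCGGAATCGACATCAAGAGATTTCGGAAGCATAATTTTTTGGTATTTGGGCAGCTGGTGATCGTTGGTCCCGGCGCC
Z93241.1: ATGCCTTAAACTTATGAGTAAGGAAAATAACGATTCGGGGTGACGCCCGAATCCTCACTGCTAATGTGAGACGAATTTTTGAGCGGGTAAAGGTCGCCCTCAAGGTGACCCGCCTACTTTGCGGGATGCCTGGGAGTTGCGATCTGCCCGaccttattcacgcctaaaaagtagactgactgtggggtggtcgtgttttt
AC245014.3: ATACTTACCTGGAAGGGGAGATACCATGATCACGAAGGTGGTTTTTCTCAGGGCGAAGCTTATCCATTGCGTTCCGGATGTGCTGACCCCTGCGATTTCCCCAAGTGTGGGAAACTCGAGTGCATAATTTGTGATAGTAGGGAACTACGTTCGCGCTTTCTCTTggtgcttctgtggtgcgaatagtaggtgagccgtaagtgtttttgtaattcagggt
AL360012.1 (chr1:28648600-28648730, plus strand) has 131 bases, all within RNU11, the U11 RNA of the minor spliceosome. Z93241.1 begins with the whole of RNU12, the U12 RNA of the same machine, and its first 200 bases are shown (chr22:42615244-42615443, plus strand). AC245014.3 begins with RNVU1-14, a variant of the U1 RNA, and its first 220 bases are shown (chr1:145281116-145281335, plus strand).

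The locus with the highest log2 ratio between the lines was AC012306.2, given without capitals.
AC012306.2: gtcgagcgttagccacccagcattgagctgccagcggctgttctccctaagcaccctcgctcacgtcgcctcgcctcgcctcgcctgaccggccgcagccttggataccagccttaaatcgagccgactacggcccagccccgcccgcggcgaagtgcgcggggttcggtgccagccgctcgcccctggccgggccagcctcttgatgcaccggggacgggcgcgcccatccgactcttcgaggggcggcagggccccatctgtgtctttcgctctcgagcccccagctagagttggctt
The first 300 bases of AC012306.2 are shown (chr2:127886556-127886855, plus strand). This single-exon transcript starts head to head with AMMECR1L, with 634 bases between the loci.

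The clone-named loci were listed at low levels. A listed value is the normalized expression value of a transcript in the deposited table, in a unit that its header does not name, and the transcripts of a gene were summed. Where the deposited fold changes decoded to a count over 20, the listed value followed that count divided by locus length, introns included. A long locus is therefore listed lower than a short one at the same count. The median gene had a mean over both lines of 0.110, against 0.422 for all genes. A mean of at least 1 was reached by 457 members (9.64%), against 34.0% of all genes. A mean of at least 10 was reached by 27 members and a mean of at least 50 by 5. Genes above the mean of 1 are the ones compared below.

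A single short locus dominated the members' sum of listed values, which are scaled by locus length. AC006064.5, 248 bases long, lies inside SCARNA10, a small Cajal body RNA that guides the modification of a spliceosomal RNA. It was listed at 3403 in the resistant line and 5179 in the parental line, which was 56.5% and 66.1% of the sum over all clone-named genes. Its log2 ratio, taken as log2(resistant value + 1) minus log2(parental value + 1), was −0.61. NCAPD2, a condensin subunit whose intron holds it, was listed at 3.20 and 4.28. Clone-named genes held 12.6% of the listed sum of the resistant line and 16.7% of that of the parental line. Without AC006064.5 their sums were close, 2617 in the resistant line and 2661 in the parental line.

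Between the lines, 20 of the 457 clone-named genes had a listed value at least 2-fold higher in the resistant line, 35 were lower by the same margin and 402 lay within it. Over all 5767 genes above the same mean, 12.9% passed this margin, 8.5% in the higher direction and 4.37% in the lower. The members' shares were 4.38% higher and 7.66% lower, so the balance of the clone-named genes leaned to the parental line and that of all genes to the resistant line. Their median log2 ratio was 0.01, with 230 members higher and 227 lower, against a median of 0.16 over all genes. When the resistant values were divided by the median ratio of all genes, 1.17, the split became 12 higher and 44 lower. With 0.1 in place of 1 added to each value it was even, 56 higher and 56 lower, and above a mean of 5 it was 4 and 5 of 74 genes. In bulk RNA, fewer cells holding an RNA and less of it per cell cannot be told apart.

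**Figure D1:**
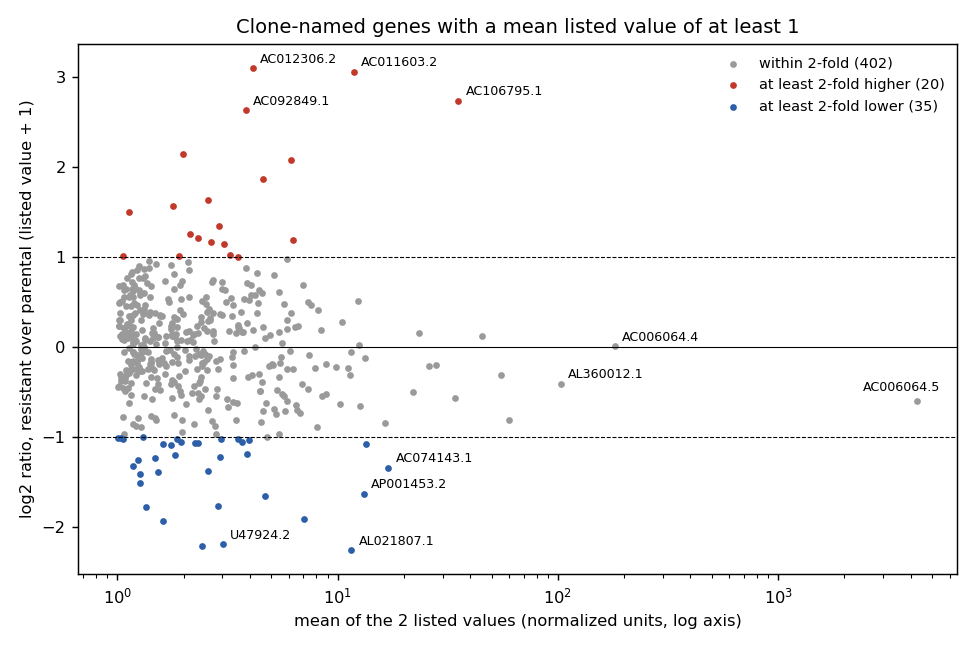
Each point is 1 of the 457 clone-named genes with a mean listed value of at least 1; the x axis is the mean of both lines on a log axis and the y axis the log2 ratio of resistant over parental with 1 added to each value. The 20 higher genes are red, the 35 lower genes blue, and AC006064.5 stands alone at the right with a log2 ratio of −0.61.

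Other naming classes of non-coding genes were set beside these without a test. Of 69 LINC-named genes above the mean of 1, 2 were higher and 3 lower, with a median log2 ratio of 0.07. Among 152 antisense genes named with -AS, 4 were higher and 6 lower, and the median was −0.01. Of 24 divergent genes named with -DT, none was higher and 1 was lower, with a median of 0.13. At the level of single transcripts, 441 clone-named transcripts had a mean of at least 1. Of these, 24 (5.44%) were higher and 35 (7.94%) lower, against 11.8% and 7.42% of all transcripts. The lower share was thus near that of all transcripts.

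Values just at the threshold show how the call falls. AL590705.3 (log2 ratio 1.004) and AC138393.3 (1.01) were just inside on the higher side, and AC021078.1 (0.98) and AL355488.1 (0.95) just outside. On the lower side AC005736.1 (−1.002) and AC004130.1 (−1.01) were just inside, and AC084117.1 (−0.996) and AC245041.2 (−0.97) just outside.

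Over the 457 members above the mean of 1, the nearest coding gene overlapped on the opposite strand in 41.1%, overlapped on the same strand in 17.5% and started head to head in 12.5%. Of the 15 clone-named genes with the highest log2 ratio, 7 overlapped a coding gene on the opposite strand, 4 overlapped one on the same strand and 2 started head to head with one. AC012306.2, the intergenic RNA beside AMMECR1L, was listed at 8.19 in the resistant line and 0.0724 in the parental line, with a log2 ratio of 3.10. The counts that the authors' deposited fold change decodes to were 244 and 4, a ratio of 72.6 with an exact 95% counting interval of 28 to 269. The interval covers counting error only, and what the counts count is not stated. The listed ratio of its single transcript departs from the deposited fold change, so the gene has no value when such transcripts are left out.

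AC011603.2, now named TUBA1B-AS1, lies opposite the alpha-tubulin genes TUBA1A and TUBA1B (chr12:49127782-49188484, plus strand). Its sum was 21.9 in the resistant line and 1.76 in the parental line, with a log2 ratio of 3.06. Of this, 20.9 came from 1 of its 5 transcripts, AC011603.2-201, whose decoded counts were 1086 in the resistant line and 0 in the parental line. By these counts, against a floor of 3 in the parental library, that transcript was at least 431-fold higher in the resistant line. Its listed values, 20.9 and 0.380, differ by less, and the parental value is above 0 although the decoded count is 0. Its other 4 transcripts had log2 ratios between −0.36 and 0.04, and with transcripts whose listed ratio departs from the deposited fold change left out, the gene's log2 ratio was −0.28. TUBA1B, listed at 115 in the resistant line and 249 in the parental line, differed the other way with a log2 ratio of −1.10, while TUBA1A was listed at 0.357 and 0.159.

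Further antisense members were higher, and of the genes opposite, PPP1R35, IFT22 and NAGK were within 2-fold. AC092849.1, now PPP1R35-AS1, was listed at 7.33 in the resistant line and 0.345 in the parental line, with a log2 ratio of 2.63. PPP1R35, a centrosomal protein gene on the opposite strand, was listed at 24.7 and 21.0. AC006329.1, now EMSLR, was listed at 3.87 and 0.102, a log2 ratio of 2.14. It lies opposite IFT22, which encodes a protein of ciliary transport and was listed at 1.02 and 1.49. AC007881.3, opposite the N-acetylglucosamine kinase gene NAGK, was listed at 2.14 and 0.114, and NAGK at 4.03 and 2.93. For AC005288.1, opposite the Mediator subunit gene MED1, the values were 3.18 and 0.410, and MED1 was listed below a mean of 1, at 0.170 and 0.499.

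Members on the same strand as an overlapping gene were also among the highest. AC023509.1, which overlaps the RNA-binding protein gene PCBP2, was at 10.5 in the resistant line and 1.74 in the parental line, with PCBP2 at 29.8 and 25.8. AC016876.2, which overlaps the translation initiation factor gene EIF4A1, was at 7.80 and 1.41, with EIF4A1 at 55.7 and 40.0. AC016831.7 overlaps LINC-PINT, a long non-coding RNA induced by p53, on the same strand. It was listed at 4.43 and 0.751, a log2 ratio of 1.63, whereas LINC-PINT was listed at 5.60 and 9.98, a log2 ratio of −0.73. AC092747.4 was listed at 3.65 and 1.01, and the Mediator subunit gene MED21, which it overlaps, at 0.524 and 0.559. In all of these pairs the loci share bases, so their values are not independent.

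AC106795.1, annotated as a transcribed pseudogene on chromosome 5, had the largest value among the higher members, 62.2 in the resistant line and 8.47 in the parental line, with a log2 ratio of 2.74. The transcript AC106795.1-204 held 59.5 and 7.30 of these. Reads of a pseudogene can be shared with its near-identical copies, so this value is uncertain. AC004086.1, the RPL6 identifier, was listed at 9.13 and 3.44, and its transcript AC004086.1-207 had decoded counts of 707 and 12 while AC004086.1-206 had 318 and 529. Also among the 15, AC148477.1, AC008105.3, AC092747.4 and AC007878.1 had log2 ratios of 1.34, 1.26, 1.21 and 1.17.

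**Figure D2:**
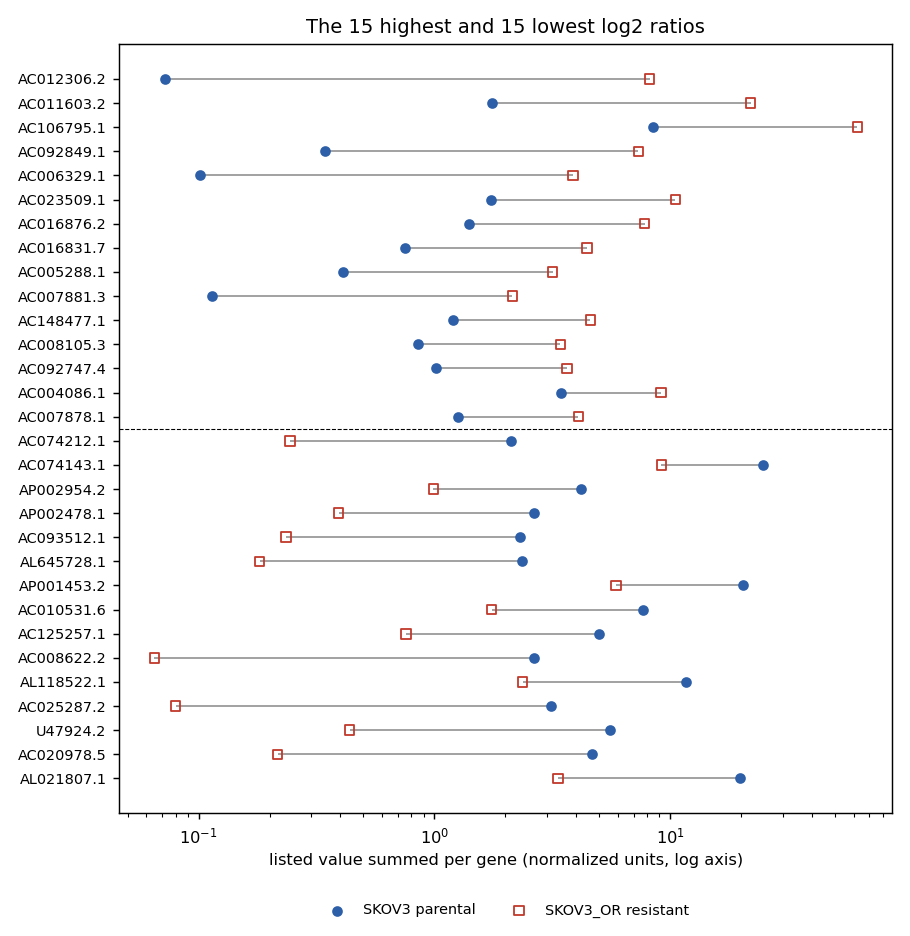
Listed values per gene in the parental line (filled circles) and the resistant line (open squares) on a log axis, for the 15 clone-named genes with the highest log2 ratio (above the dashed line) and the 15 with the lowest (below it). AC012306.2 spans 0.0724 to 8.19 at the top and AL021807.1 spans 3.34 to 19.8 at the bottom.

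Among the 15 lowest members, 9 overlapped a coding gene on the opposite strand, 1 on the same strand, and 2 started head to head with one, to be read against the shares over the 457 members given above. AL021807.1 lies in the histone cluster of chromosome 6, 2676 bases from HIST1H2BJ, an H2B histone gene. It was listed at 3.34 in the resistant line and 19.8 in the parental line, with a log2 ratio of −2.26, with decoded counts of 90 and 764. AC020978.5, opposite the transcription factor gene NFATC3, followed at 0.217 and 4.64, a log2 ratio of −2.21. NFATC3 itself was listed at 3.08 and 2.59.

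U47924.2 lies opposite both C12orf57 and RNU7-1, the U7 RNA that serves the 3′ end processing of histone mRNAs. It was listed at 0.438 in the resistant line and 5.58 in the parental line, with a log2 ratio of −2.19, with decoded counts of 23 and 419. C12orf57 was listed below a mean of 1, at 0.643 in the resistant line and 0.205 in the parental line. RNU7-1 itself had no listed value.

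Several low members stood almost only in the parental line. AC025287.2, head to head with the ciliary transition zone gene TMEM231, was listed at 0.0800 and 3.13; its decoded counts were 3 and 143, a ratio of 0.0250 with an exact 95% counting interval of 0.00509 to 0.0744. AC008622.2, opposite the glutamine transporter gene SLC1A5, was listed at 0.0650 and 2.64. Its leading transcript had counts of 2 and 222, a ratio of 0.0107 with an interval of 0.00129 to 0.0392. AL645728.1, opposite the phosphatase gene SSU72, was listed at 0.182 and 2.36, with counts of 2 and 305 for its transcript AL645728.1-202, a ratio of 0.00780 with an interval of 0.000941 to 0.0284.

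Other low members had values well above 1 in both lines. AP001453.2, now PPP1R14B-AS1, lies opposite the phosphatase inhibitor gene PPP1R14B and was listed at 5.89 in the resistant line and 20.3 in the parental line, with a log2 ratio of −1.63. AL118522.1, inside the potassium channel gene KCNK15, was listed at 2.37 and 11.7, a log2 ratio of −1.91. AC074143.1, the identifier of the apoptosis repressor gene NOL3, was listed at 9.17 and 24.8, a log2 ratio of −1.34. The other low members AC125257.1, AP002954.2, AP002478.1, AC093512.1 and AC074212.1 were listed below 1 in the resistant line, with log2 ratios between −1.77 and −1.33.

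Loci that overlap a small RNA gene made up much of the highest level. Leaving microRNA genes out, 9 transcripts with a mean of at least 1, with a single exon or a short locus of unknown structure, overlapped one, a set looked up after the values were seen, and 6 of these were lower and 3 higher in the resistant line. Only U47924.2 differed by at least 2-fold. AL360012.1 (RNU11) was listed at 88.6 in the resistant line and 118 in the parental line, Z93241.1 (RNU12) at 24 and 27.9, and AL021155.2, which covers the U5 variant RNU5E-1, at 17.8 and 25.3. AL355075.4 covers RPPH1, the RNA of the tRNA-processing enzyme RNase P, and lies opposite PARP2, a target of olaparib. It was listed at 43.3 and 76.7, a log2 ratio of −0.81, and PARP2 at 3.06 and 3.36.

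AC245014.3 (RNVU1-14) was nearly level in listed values at 12.6 and 12.4, with decoded counts of 206 and 294. AC007952.4, over the U3 gene SNORD3D, was higher in the resistant line at 14.7 against 10.0, and AC105339.2, over SCARNA15, was at 1.78 and 1.31. U3, U1 and U5 RNAs have several gene copies, so reads can be shared among them. The table has no value under the small RNA names themselves, and reads of the small RNA and of a longer transcript over it cannot be told apart here.

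**Figure D3:**
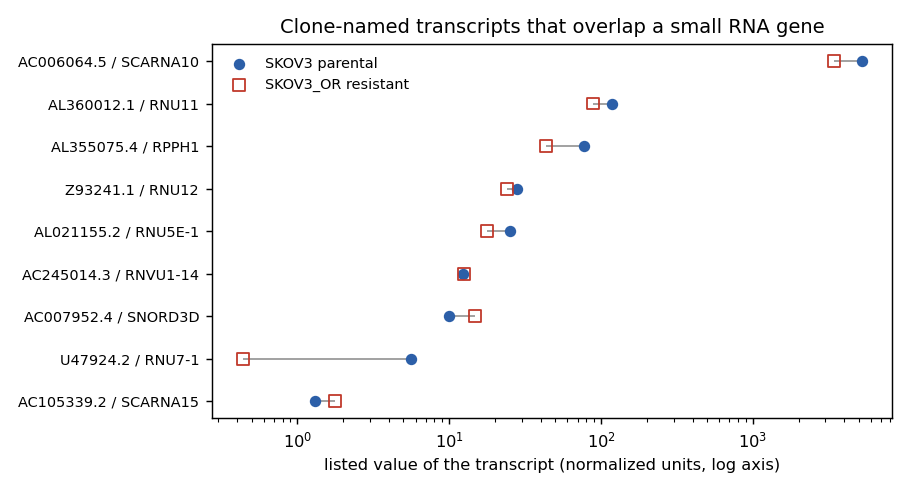
Listed values in the parental line (filled circles) and the resistant line (open squares), on a log axis, of the 9 clone-named transcripts with a mean of at least 1 that overlap a small RNA gene other than a microRNA gene, named as locus / small RNA. The values run from 0.438 for U47924.2 to 5179 for AC006064.5, and 6 of the 9 are lower in the resistant line.

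The remaining abundant members differed little. AC006064.4 lies opposite GAPDH, the glycolytic enzyme gene, and was listed at 182.3 in the resistant line and 181.6 in the parental line, with GAPDH at 717 and 849. AC243919.1, a processed pseudogene, was listed at 49.2 and 61.2. AC023043.1, now COSMOC, lies opposite the Elongator subunit gene ELP2 and was listed at 47.1 and 43.2. AC008738.7, at the 3′ end of the lipoprotein receptor gene LRP3, was at 27.4 and 41.0, and AC019171.1, opposite ARHGEF33, at 26.0 and 30.1.

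The members were then set beside their nearest gene with a symbol. For 179 members above the mean of 1, such a gene lay within 5 kb and had a mean of at least 1 as well. In this set 10 members were higher and 15 lower by at least 2-fold, and the neighbour also passed 2-fold in 3 pairs; over all 179 pairs, 13 neighbours were higher and 4 lower by this margin. AL162258.1 and S100A13, a calcium-binding protein gene on the same strand, were both lower, at 8.31 against 18.7 and 4.09 against 13. TUBA1B-AS1 and TUBA1B differed in opposite directions, as given above. So did AC004130.1, now ITGB8-AS1, at 0.334 against 1.69, and the integrin gene ITGB8, at 8.51 against 3.10. For AC004130.1 the deposited fold changes of its transcripts pointed in both directions: AC004130.1-201 had decoded counts of 50 and 0 and AC004130.1-202 of 0 and 164. The listed values of AC004130.1-201 ran against its counts, at 0.307 in the resistant line and 0.943 in the parental line, so the gene's direction is uncertain.

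The likeness to the neighbour is given as a description over pairs that share both libraries. Where member and neighbour overlapped on the same strand, the log2 ratios had the same sign in 70.5% of 44 pairs, with Pearson's r 0.39 and Spearman's rho 0.45. On opposite strands, 40.7% of 59 pairs had the same sign, with r −0.14 and rho −0.01. Head to head, r was 0.13 over 41 pairs. The same-sign share was 61.5% of 65 pairs at 5 to 50 kb and 73.1% of 26 pairs over 50 kb apart. Overlapping loci on 1 strand share exonic or intronic reads, and the part of this in the values was not tested. AC084117.1, inside the lactate dehydrogenase gene LDHA, is an example of a same-strand pair: it was listed at 2.87 and 6.72, and LDHA at 73.1 and 143.

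**Figure D4:**
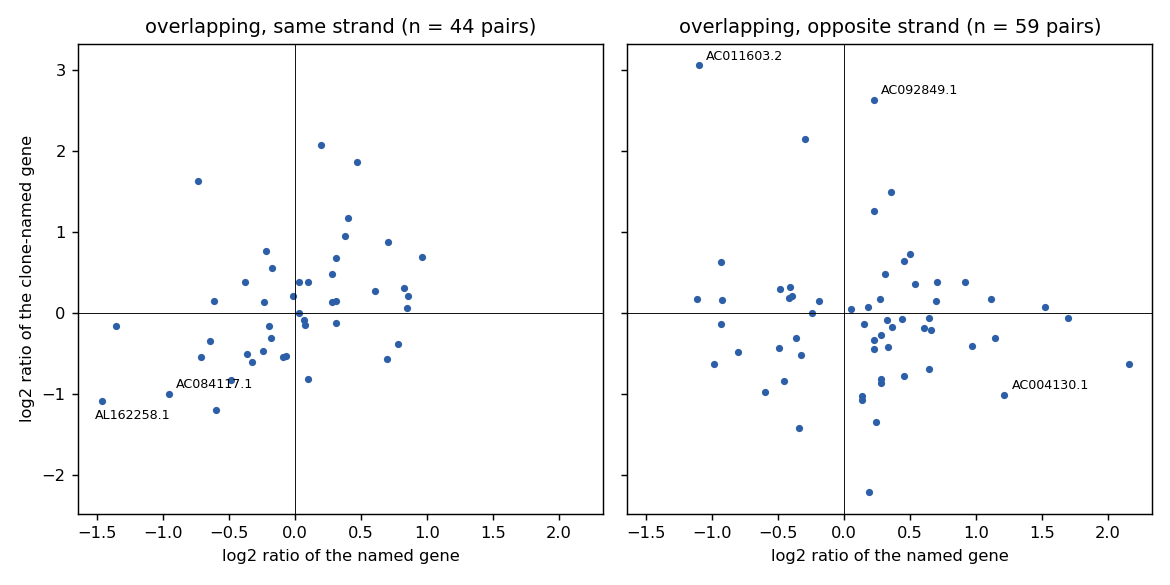
Log2 ratio (resistant over parental, 1 added to each value) of the clone-named gene on the y axis against that of the overlapping named gene on the x axis, 1 point a pair, for 44 pairs on the same strand (left) and 59 on opposite strands (right). AC011603.2 stands at the upper left of the right panel, at 3.06 against −1.10 for TUBA1B.

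By chromosome, the members on chromosome 16 stood lowest among chromosomes with over 20 members above the mean of 1. Of 41 such members, 1 was higher and 9 lower by at least 2-fold, and the median log2 ratio was −0.36. Other genes of chromosome 16 also leaned to the parental line, with 7 higher and 23 lower of 314 and a median of −0.19. The 9 were AC020978.5, AC025287.2, AC010531.6, AC093512.1, AC074143.1, AC007216.3, AC040169.1, AC027682.4 and AC005736.1, and this chromosome was singled out after its values were seen. AC010531.6, now C16orf95-DT, was listed at 1.75 in the resistant line and 7.66 in the parental line. AC040169.1, now MBTPS1-DT, starts head to head with the protease gene MBTPS1 and was at 1.98 and 5.80. Without chromosome 16, 19 members were higher and 26 lower. The number of copies of chromosome 16 in each line was not analysed here.

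**Figure D5:**
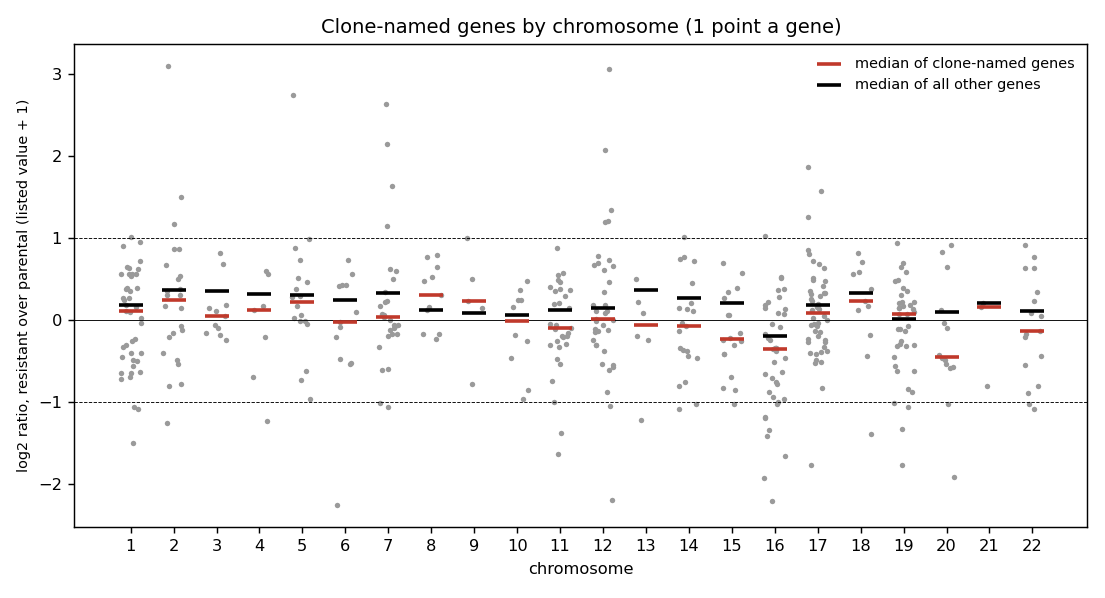
Log2 ratio (resistant over parental, 1 added to each value) of each clone-named gene with a mean of at least 1, by chromosome, with the median of the clone-named genes in red and the median of all other genes in black. On chromosome 16 both medians lie below 0, at −0.36 and −0.19.

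Of 27 runs of neighbouring members, 20 held log2 ratios on both sides of 0, 6 only below and 1 only above. The longest, with 7 members at chr19:2727743-4182566, had 6 members with a log2 ratio above 0 and 1 below, from −0.84 for AC005944.1 opposite TLE5 to 0.69 for AC016586.1, the SIRT6 identifier. The run at chr16:30064306-31459736 had 6 members with a median of −0.22, and only AC093512.1, opposite the aldolase gene ALDOA, passed 2-fold at −1.42. In the run at chr17:81388126-82245591, 3 of 6 members were above 0 and 3 below, and none passed 2-fold.

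Transcript structure and base composition also varied with the call. Of members whose leading transcript has 1 exon, 4 were higher and 18 lower of 185, whereas of those with a spliced leading transcript 15 were higher and 12 lower of 212. Among other genes with a single-exon leading transcript, 11 were higher and 1 lower of 142, and among those with a spliced one 436 were higher and 202 lower of 4849. With a GC content of at least 55%, 5 members were higher and 16 lower of 139, against 71 and 102 of 1677 other genes. From 45% to under 55% the counts were 9 higher and 5 lower of 150, and below 45% they were 5 and 9 of 108. In the same bins of other genes, 121 were higher and 63 lower of 1567, and 255 and 38 of 1747. The median GC content was 51.2% in the higher and 57.3% in the lower members, and 50.8% in those within 2-fold. The part of base composition in the log2 ratios was not tested.

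RefSeq promoters (GRCh38.p14, from 250 bases before to 50 after the start) were matched by current symbol and locus for 543 members, 90 of them above the mean of 1. Some current symbols are those of protein-coding genes, such as RPL6 and SIRT6, so promoters of coding genes can be among these. Above the mean of 1, 156 members had a current symbol and 37 had a gene symbol in release 29. The part of coding genes in the shares below was not tested. The letters GGGCGG, a GC box, stood on either strand in 324 of the 543 (59.7%), in 63 of the 90 (70.0%) and in 43.0% of all 22114 promoters. TATAAA stood in 4 of 90 (4.44%), against 12.7% of all promoters, and CCAAT in 27 of 90, against 36.2%. TGACTCA stood in 5 and CACGTG in 6 of the 90, against 5.12% and 7.28% of all promoters. CG dinucleotides had a median number of 23 in the 543, 29 in the 90 and 12 in all promoters, which were not filtered on level. Only 3 higher and 3 lower members had a promoter, too few to compare.

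In some members with several transcripts, the lines differed in which transcript held the value. In 17 of 174 such genes (9.77%), 1 transcript shifted its share of the gene's value by at least 50 percentage points. Among other genes this held for 250 of 4856 (5.15%), and the sets were not matched for level or number of transcripts. In 4 of the 17 clone-named genes, the shifted transcript had a decoded count of 0 in 1 line. AP002360.1, now EMSY-DT, is divergent from EMSY, a gene of a BRCA2-binding protein, and its sum was similar at 8.21 in the resistant line and 9.52 in the parental line. AP002360.1-201 held 75.6% of this in the resistant line and 0.0726% in the parental line, with counts of 949 and 2, and AP002360.1-203 had counts of 144 and 1785. The ratio for AP002360.1-201 was 565 with an exact 95% counting interval of 156 to 4669. EMSY was listed at 1.44 and 0.695.

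Transcript shares also shifted at AL451165.2, now ILRUN-AS1, where AL451165.2-203 held 11.4% of the value in the resistant line and 96.4% in the parental line. In AC016629.3, AC016629.3-202 held 5.95% and 94.6%, and in AC243964.2, now CEACAM16-AS1, AC243964.2-202 held 1.81% and 85.7%. The gene sums of both were lower in the resistant line, at 0.560 against 1.87 for AC016629.3 and 0.975 against 1.46 for AC243964.2. For AC005076.1, now DMTF1-AS1, AC005076.1-201 held 83.2% and 8.39%, and the gene was listed at 1.79 and 0.847. DMTF1, which encodes a cyclin D-binding transcription factor and starts beside it, was listed at 22.7 and 8.61, a log2 ratio of 1.30. The transcripts of each of these genes overlap, and the assignment of reads among them is an estimate.

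The members with the most transcripts were AC006504.5 with 20, AL157392.3 with 19 and AC005670.3 with 18. AC006504.5, now LINC02987, was listed at 6.81 in the resistant line and 4.61 in the parental line, while its transcript AC006504.5-217 had decoded counts of 836 and 0 and AC006504.5-201 of 243 and 830. The sums of AL157392.3 were 2.37 and 1.61, and those of AC005670.3 were 1.40 and 1.67.

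The authors' deposited table gave an adjusted p under 0.05 to 2867 of the 6260 clone-named transcripts (45.8%), 1360 higher and 1507 lower. Over all 47892 transcripts the share was 45.8% as well. These p-values compare single libraries. In 1761 of the 2867 the decoded count was 0 in 1 line. Over all clone-named transcripts, a count of 0 in either line was found in 38.7%, against 22.3% of all transcripts. Over all transcripts with both counts over 20, the listed log2 ratio lay a median of 0.28 above the deposited fold change, toward the resistant line. After this offset was subtracted, these measures lay over 0.3 apart on the log2 scale in 42.5% of clone-named transcripts. The calls and medians above use listed values and were not corrected for the offset.

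The cells were checked against markers. The keratin genes KRT8 and KRT7, of epithelial cells, were listed at 318 and 73.3 in the resistant line and at 166 and 62.6 in the parental line, and KRT18 at 5.83 and 14.3. The ovarian lineage factor PAX8 was low at 0.489 and 0.0738, and EPCAM lay near 0 at 0.00143 and 0.0412. ERBB2 was listed at 3.84 in the resistant line and 5.37 in the parental line, and CD44 at 7.22 and 2.78. MUC16 and WT1, also on the list of ovarian markers, had no listed transcript. The fibroblast genes COL1A1, COL3A1 and PDGFRB were at or below 0.203 in both lines. The immune and endothelial markers were not analysed here.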

How the data were processed

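Total RNA of 1 parental and 1 olaparib-resistant SKOV3 library was depleted of ribosomal RNA, per the labels' protocols. HISAT2 and StringTie are named in the submitters' processing notes, without versions; the notes name the mouse build mm10, but the identifiers are human. Of the clone-named transcripts, 80.1% were found in GENCODE release 29, where 96.5% had an identical GRCh38 position, so coordinates are as deposited, on GRCh38.

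The deposited table holds a normalized expression signal per transcript and library in a unit that is not named, and a log2 fold change with raw and adjusted p-values, per the file headers. No source used here gives the authors' test. With constants of 0.114 (resistant) and 0.136 (parental), the deposited log2 fold changes of 98.8% of clone-named transcripts decoded to pairs of whole counts. Where a count was over 20, listed values followed it divided by locus length with introns; beside a count of 0 they could be above 0. Depth is unknown.

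Values were summed per gene (Python 3.11.15, pandas 2.3.3), a pseudocount of 1 was added, genes with a mean of at least 1 were kept, and calls are by size, at least 2-fold. Count ratios were scaled as the deposited fold changes are, by 1.19, with exact binomial intervals. Steps were tested on simulated data. Named genes, among those with a larger value of at least 2, were the 15 highest and 15 lowest log2 ratios, the 10 largest means, the 3 with most transcripts, the 6 with the largest transcript shift, 3 runs of members at most 500 kb apart, and 2 each side of the thresholds. Members, lists and rules were chosen with earlier results of these data known. Alternatives changed the pseudocount, the filter, the scaling and the transcripts used. A second deposited list was not used. Some sequences are not reported here.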

Additional observations from a re-analysis of the deposited data

How the results depend on the processing

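No paired analysis was possible because each line has 1 library. All values are for the counts of genes at least 2-fold higher and lower and the median log2 ratio, with 20, 35 and 0.01 as reported. A pseudocount of 0.1 gave 56 higher and 56 lower genes, and 62 higher and 64 lower transcripts. A pseudocount of 5 gave 5 and 4 genes and 6 and 5 transcripts. Without a filter on low values, 38 transcripts were higher. With a mean of at least 5, 4 genes were higher, 5 lower, and the median was −0.22; 3 transcripts were higher and 6 lower. After rescaling by the median ratio of all genes, which moves every log2 ratio of a high gene by 0.23, 12 genes were higher and the median was −0.18. Members that overlap no named gene, 147 in all, had 6 higher and 13 lower. The other alternatives kept these counts within 1.5 times: long non-coding types only, values at a count of 0 set to 0, discordant transcripts left out, the leading transcript alone, and, chosen after seeing the data, chromosome 16 left out. The count of 3 pairs was 3 under both other distances. Of the 34 named genes past 2-fold, 1 turned direction: AC011603.2, to −0.28 without discordant transcripts; the cause was not tested. AC012306.2, AC004130.1 and AC025287.2 have no concordant transcript and no value under that alternative. A pseudocount of 5 moved 25 of the 73 across the threshold, rescaling 8 and the leading transcript alone 11. Low counts limit the members listed near 1, and 1 library a line limits all.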

Other observations

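Clone-named transcripts outside chromosomes 1 to 22, or without an Ensembl transcript identifier, numbered 137, and 8 of them had a mean of at least 1. Of these, none was at least 2-fold higher in the resistant line and 1 was lower. BX890604.2, on chromosome X, was listed at 0.547 in the resistant line and 2.96 in the parental line, with a log2 ratio of −1.36, with decoded counts of 672 and 5266. Z83843.1, also on chromosome X, was listed at 2.96 and 1.28, a log2 ratio of 0.79.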
